A study of Mus musculus with 6 samples.

Results

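The axon guidance ligands and receptors were taken from the count matrix by gene symbol. They comprised the semaphorins of classes 3 to 7, the plexins, the Eph receptors, the ephrins, the Slit and Robo genes, the Unc5 receptors, the netrins Ntn1, Ntn3, Ntn4 and Ntn5, and Dcc. The rule found 67 of the 26049 genes in the matrix, 35 of them ligands and 32 receptors, in 11 families. They were measured by single-nucleus RNA sequencing of the hippocampus of male PS19 mice, which carry a human tau transgene with the P301S mutation and develop tau pathology. All groups carried this transgene, so no group without it is compared here. The groups with the VEGFC vector, an adeno-associated virus (AAV) carrying the lymphatic growth factor VEGFC, were TBI VEGFC right, TBI VEGFC left and sham VEGFC right. The matched groups with AAV-GFP were TBI GFP right, TBI GFP left and sham GFP right. TBI stands for a mild traumatic brain injury made by controlled cortical impact over the right hemisphere, sham for the control without the impact, and right and left for the hippocampus taken. Each of the 6 groups was 1 library, the age and the number of mice behind a library are not given in the labels, and a left hippocampus of sham mice was not analysed here.

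Axon guidance proteins steer growing axons by attraction or repulsion, and many of them stay on in the adult brain, where they act at synapses and in the placement of glia. Semaphorins signal through plexins, with neuropilins as partners for most of class 3. Ephrins are membrane-bound ligands of the Eph receptor tyrosine kinases and can also signal backwards into the cell that carries them. Slit proteins repel through Robo receptors, and netrins attract through Dcc or repel when an Unc5 receptor takes part.

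In all 28650 nuclei were deposited. Libraries held 3676 to 6002 of them and 15358208 to 18379148 UMIs (unique molecular identifiers, which count RNA molecules), with median UMIs per nucleus of 2689 to 3703.5. The authors sorted the nuclei into 9 classes and 32 clusters, and this annotation was kept. Of the cell barcodes, 91 occurred in 2 or more libraries. Levels are CPM, the UMIs of a gene summed over the nuclei of a class in a library and scaled to the same total in every class and library, and each mean has its SD over the 6 libraries. Since the nuclei were clustered with these genes among the others, levels between classes are a description with no test. A class is said to stand apart where its lowest library was above the highest library of each class it is set against. Each class with a marker list (all but the mixed neurons) had the highest summed level of its own markers among the classes.

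Of the 67 genes, 57 reached a mean of 10 CPM in at least 1 class. The 10 below that level were Sema3g, Plxnd1, Epha1, Epha2, Epha8, Efna2, Efna4, Robo4, Ntn3 and Ntn5, among them Robo4 and Plxnd1, which are known from blood vessels. The top class was 1 of the 3 neuron classes for 22 of the 57, or 38.6%, against 18.8% of all 15361 genes with at least 10 CPM. For 24 of the 57, or 42.1%, the top class stood apart from all other classes, against 24.5% of all genes with that level. With nuclei of at least 2000 UMIs alone, the top class stood apart for 11 of 59 guidance genes, and the share of all genes at that limit was not computed. These 24 were 9 of 16 with their top class in excitatory neurons, 4 of 7 in oligodendrocyte precursor cells (OPCs) and 3 of 5 in astrocytes. The rest were 3 of 7 in oligodendrocytes, 3 of 9 in fibroblasts and 2 of 4 in choroid plexus epithelium. Over all genes, these counts were 287 of 883, 253 of 949, 443 of 1213, 570 of 1509, 361 of 2192 and 828 of 2943. In inhibitory neurons, mixed neurons and microglia 42, 43 and 23 guidance genes reached 10 CPM, but only 2, 4 and 3 had their top class there. None of these stood apart, where over all genes 104 of 690, 97 of 1319 and 819 of 3663 did. All 3 Slit ligands stood apart, 2 in excitatory neurons and 1 in choroid plexus, and so did both of the 2 netrins with at least 10 CPM. Of the receptors with at least 10 CPM, 3 of 8 plexins, 3 of 6 EphA receptors, 1 of 5 EphB receptors, 1 of 3 Robo and 2 of 4 Unc5 genes did so.

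**Figure D1:**
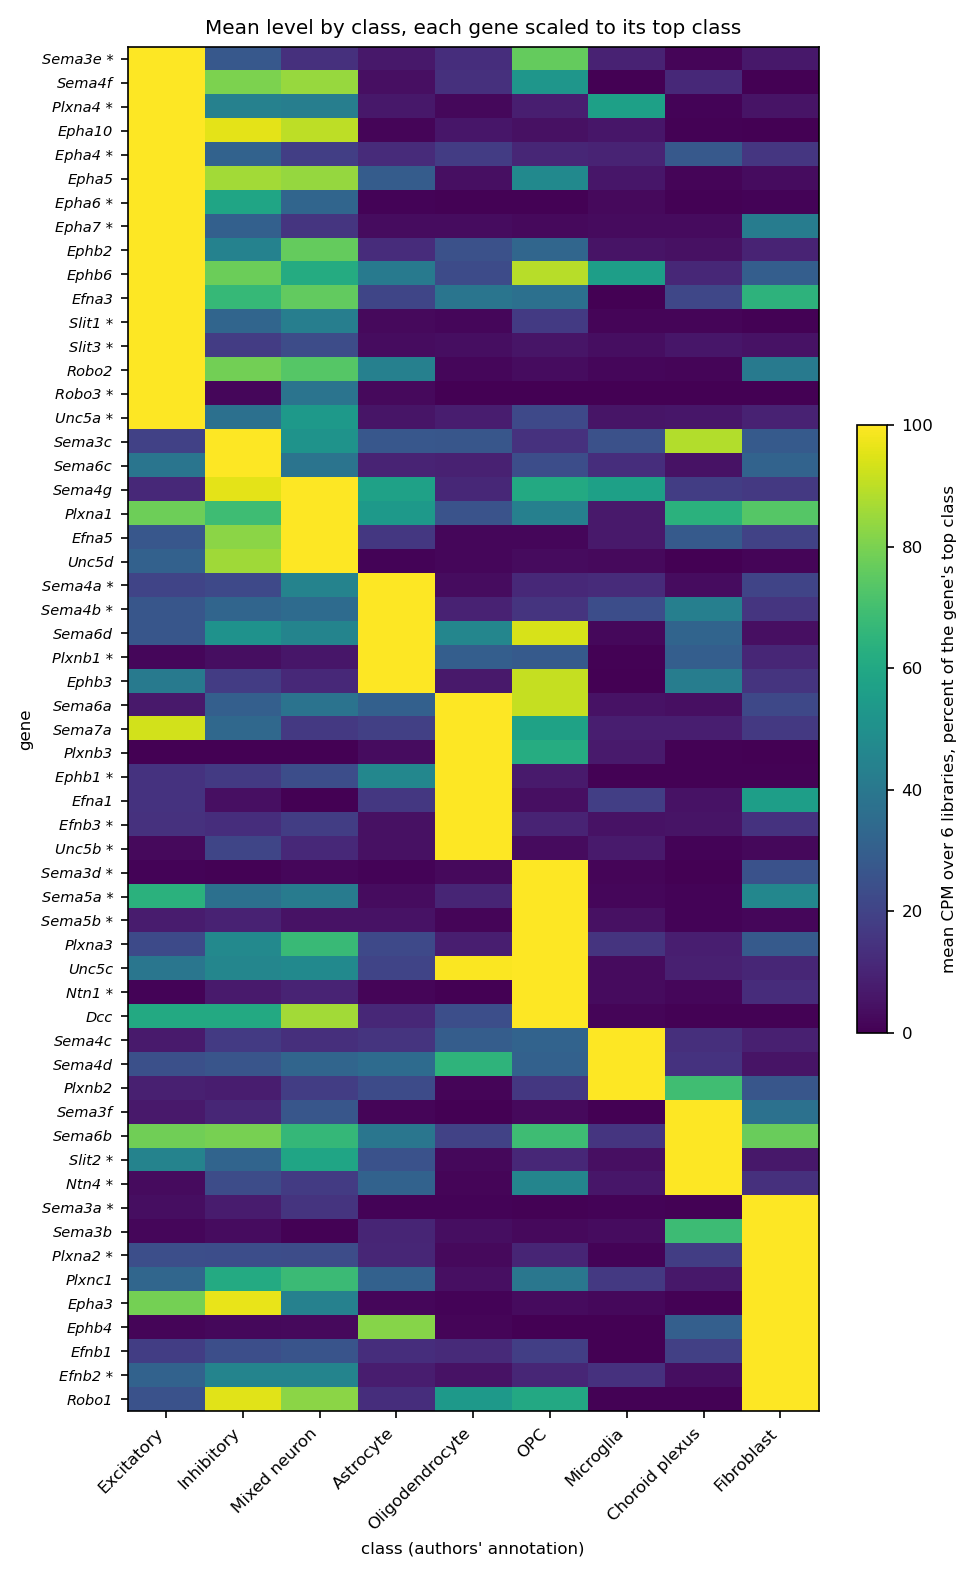
Mean CPM over the 6 libraries of the 57 genes with at least 10 CPM (rows) in the 9 classes (columns), as a percent of each gene's own top class, with an asterisk where the top class stood above every other class in all 6 libraries. The 24 asterisks fall mainly in the excitatory neuron block, with 9, and the OPC block, with 4.

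In excitatory neurons, the receptors that stood apart were 3 EphA receptors with Plxna4, Robo3 and Unc5a, and the ligands were Sema3e, Slit1 and Slit3. Epha6, a receptor for A ephrins, had 2427 ± 177 CPM there (SD, n = 6 libraries), with 2234 as the lowest and 2701 as the highest library. Inhibitory neurons came next for Epha6 with 1426 ± 68.8 CPM. Epha7 had 744 ± 39.0 CPM in excitatory neurons, against 312 ± 91.7 CPM in fibroblasts, and Epha4, which also binds B ephrins, had 388 ± 14.9 CPM, against 123 ± 26.5 CPM in inhibitory neurons. Slit3, a repellent ligand of Robo receptors, had 1053 ± 75.0 CPM, against 247 ± 99.7 CPM in mixed neurons, and Slit1 had 207 ± 18.1 CPM, against 88.6 ± 10.9 CPM in the same class. Plxna4, a receptor for class 3 and class 6 semaphorins, had 585 ± 62.6 CPM, and microglia came next with 332 ± 116 CPM. Sema3e, a ligand of Plxnd1, had the smallest lead as a ratio, 158 ± 5.13 CPM against 120 ± 15.7 CPM in OPCs. Robo3, which modulates the response to Slit in crossing axons, had 34.7 ± 5.47 CPM, and Unc5a, a repulsive netrin receptor, had 66.1 ± 5.16 CPM, both with mixed neurons next.

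In OPCs, the dividing precursors of oligodendrocytes, 3 semaphorins and Ntn1 stood apart. Sema3d, a secreted class 3 semaphorin, had 556, 627 and 682 CPM with VEGFC, in TBI right, TBI left and sham right, and 543, 485 and 513 CPM with GFP in the same contexts. All of these values lay above the 142 ± 27.1 CPM of fibroblasts, the next class. Sema5b, a membrane semaphorin, had 265, 180, 248, 210, 173 and 241 CPM in the same order, against a mean of 20.8 ± 9.15 CPM in inhibitory neurons. Its relative Sema5a had 313, 301, 363, 355, 271 and 316 CPM, closer to the 204 ± 32.5 CPM of excitatory neurons. Ntn1, the best known netrin, had 144, 145, 224, 174, 170 and 194 CPM, against 22.1 ± 15.8 CPM in fibroblasts. The libraries did not split by vector or injury in the same way for these 4 genes, as sham VEGFC right was highest for Sema3d, Sema5a and Ntn1 and TBI VEGFC right for Sema5b. Dcc, the attractive netrin receptor, was also highest in OPCs, at 1435 ± 84.4 CPM, but overlapped the 1236 ± 246 CPM of mixed neurons. Unc5c, a repulsive netrin receptor, had 1024 ± 106 CPM in OPCs and 1017 ± 51.1 CPM in oligodendrocytes, a difference within their spread.

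The 250 bases before the transcription start of the 3 semaphorins that stood apart in OPCs are shown to set their promoters side by side, from RefSeq (GRCm38.p6, plus strand for all 3). Capitals mark ACAAAG or its reverse complement CTTTGT, the core of SOX factor sites, and GGGCGG or its reverse complement CCGCCC, the GC box.
Sema3d: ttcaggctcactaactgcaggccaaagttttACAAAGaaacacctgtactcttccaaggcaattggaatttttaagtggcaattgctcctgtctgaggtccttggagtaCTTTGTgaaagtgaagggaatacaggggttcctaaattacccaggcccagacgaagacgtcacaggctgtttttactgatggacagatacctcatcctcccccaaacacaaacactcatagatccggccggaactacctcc
Sema5a: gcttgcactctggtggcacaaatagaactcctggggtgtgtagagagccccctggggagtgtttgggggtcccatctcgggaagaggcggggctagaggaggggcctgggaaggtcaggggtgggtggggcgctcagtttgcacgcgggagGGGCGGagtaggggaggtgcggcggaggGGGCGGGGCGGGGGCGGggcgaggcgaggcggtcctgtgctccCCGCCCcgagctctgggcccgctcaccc
Sema5b: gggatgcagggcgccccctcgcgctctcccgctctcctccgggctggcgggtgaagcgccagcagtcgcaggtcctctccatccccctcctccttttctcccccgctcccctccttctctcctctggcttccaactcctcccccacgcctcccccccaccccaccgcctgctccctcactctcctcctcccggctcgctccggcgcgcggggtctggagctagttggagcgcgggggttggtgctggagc

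The Sema3d window, chr5:12382916-12383165, held 2 matches to ACAAAG, no GC box, and 46.8% G and C. The Sema5a window, chr15:32244563-32244812, held 5 GC boxes, of which 3 stand in 1 run of capitals, and 72.0% G and C. The Sema5b window, chr16:35541112-35541361, also had 72.0% G and C but held neither motif. Over all 32851 windows of this length, 16.5% held ACAAAG on either strand, 13.0% held the E-box CAGCTG, which is its own reverse complement, and 32.7% held GGGCGG. RefSeq windows were found for 57 of the 67 guidance genes, and of their 73 windows, 9.59% held ACAAAG, 16.4% held CAGCTG and 69.9% held GGGCGG. The median share of G and C was 64.4% in these windows and 52.4% in all windows. A match is a match of letters and was not tested as a binding site.

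Astrocytes had Plxnb1, Sema4a and Sema4b standing apart, a receptor for class 4 semaphorins and a pair of ligands of that class. Plxnb1 had 132 ± 7.77 CPM in astrocytes, against 39.5 ± 5.11 CPM in choroid plexus. Sema4a had 76.1 ± 9.17 CPM and Sema4b 69.0 ± 3.51 CPM in astrocytes. Sema6d, a ligand of class A plexins, was highest in astrocytes too, with 761 ± 79.8 CPM, but overlapped OPCs with 716 ± 95.3 CPM. In oligodendrocytes Ephb1, Efnb3 and Unc5b stood apart, so that an EphB receptor and a B ephrin had the same top class. Ephb1 had 447 ± 76.8 CPM in oligodendrocytes, against 207 ± 15.8 CPM in astrocytes, and its lowest library was sham VEGFC right with 297 CPM. Efnb3 had 161 ± 32.0 CPM there, and Unc5b, a netrin receptor also known from vessels, had 72.9 ± 18.8 CPM. Plxnb3 and Sema6a were highest in oligodendrocytes but overlapped OPCs, with 118 against 73.3 CPM and 252 against 230 CPM. In microglia, Sema4d, the ligand of Plxnb1, had 193 ± 48.8 CPM and Plxnb2 97.7 CPM, the first overlapping oligodendrocytes with 126 CPM and the second overlapping choroid plexus.

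Choroid plexus epithelium, which makes cerebrospinal fluid, had Slit2 at 330 ± 58.2 CPM, against 194 ± 53.6 CPM in mixed neurons, and Ntn4, a netrin of basement membranes, at 102 ± 27.9 CPM, against 46.4 CPM in OPCs. Fibroblasts had Plxna2, a receptor for class 3 and class 6 semaphorins, at 576 ± 98.8 CPM, against 138 ± 2.92 CPM in excitatory neurons. Sema3a, the first known axon-repelling semaphorin, had 313 ± 91.9 CPM in fibroblasts, against 46.7 ± 18.9 CPM in mixed neurons, and Efnb2 had 109 ± 34.3 CPM, against 49.0 ± 8.57 CPM. Fibroblast values rest on few nuclei, with 27 in the smallest library.

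Several strongly counted receptors were shared between classes. Robo1 had 1264 ± 194 CPM in fibroblasts and 1207 ± 105 CPM in inhibitory neurons, which overlap. Robo2 had 548 ± 38.1 CPM in excitatory neurons and 431 ± 68.4 CPM in inhibitory neurons. Epha5 had 1202 ± 31.2 CPM in excitatory neurons, 1035 ± 69.1 CPM in inhibitory neurons and 571 CPM in OPCs. Unc5d had 1378 ± 226 CPM in mixed neurons and 1183 ± 153 CPM in inhibitory neurons, against 425 CPM in excitatory neurons. The A ephrin Efna5 had 323 ± 120 CPM in mixed neurons and 267 ± 35.0 CPM in inhibitory neurons. Epha3, one of its receptors, had 257 CPM in fibroblasts and 249 CPM in inhibitory neurons. The other Eph receptors and ephrins near the top of their families were low, with Ephb2 at 58.0 CPM and Efna3 at 10.96 CPM in excitatory neurons, Ephb4 at 21.1 CPM and Efnb1 at 22.1 CPM in fibroblasts, and Efna1 at 14.0 CPM in oligodendrocytes. The top class of each of these 5 overlapped another class.

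Neuronal RNA outside neurons gives a scale for these glial levels. Rbfox3, a neuronal nuclear protein, stood in astrocytes, oligodendrocytes and OPCs at 1.35%, 0.955% and 1.80% of its excitatory level, and Epha6 at 0.860%, 0.639% and 0.781%. In astrocytes and oligodendrocytes Epha6 lay between Rbfox3 and another neuronal marker, Nrg3, which stood at 0.840% and 0.576%. The markers Syt1, Snap25, Celf4 and Dlgap1 stood above Epha6, at 2.65%, 2.98%, 4.15% and 26.6% in astrocytes. In oligodendrocytes these stood at 3.37%, 4.43%, 3.08% and 1.10%. Robo2 in astrocytes stood at 43.7% of its excitatory level, Epha5 in OPCs at 47.5%, and Dcc and Unc5c in OPCs at 165% and 255%. OPCs share some neuronal markers, as Snap25, Nrg3 and Dlgap1 stood there at 23.9%, 27.3% and 60.9% of their excitatory levels, the last of these above Epha5. Syt1 and Celf4 stood lower in OPCs, at 3.88% and 12.8%.

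**Figure D2:**
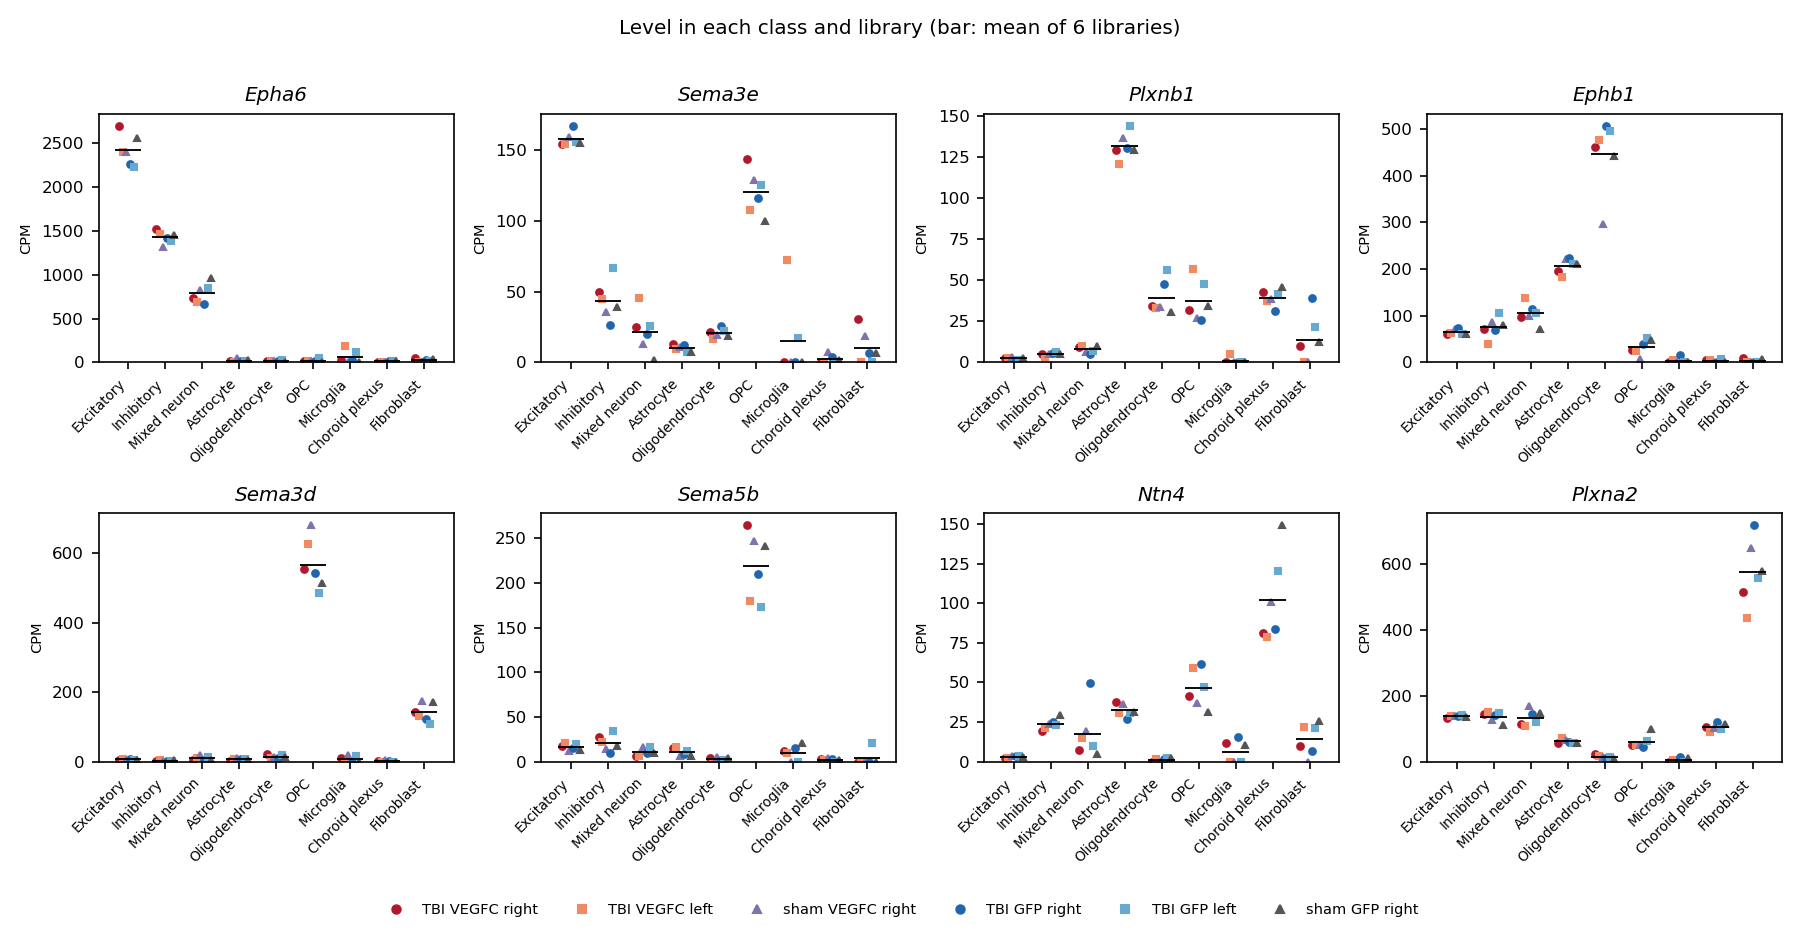
CPM of 8 guidance genes (panels, linear axes) in the 9 classes, with 1 point per library and a bar at the mean of 6. Each panel has 1 class whose 6 points lie above all others, such as OPCs for Sema3d, with 485 to 682 CPM.

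Within neurons, 4 subsets were formed from the authors' clusters and named from markers, as a CA1-like subset, a dentate granule-like subset, a CA3-like subset and an interneuron subset. The CA1 markers summed to 476 CPM in the CA1-like subset, the dentate markers to 1351, the CA3 markers to 2260 and the interneuron markers to 887 CPM in their own subsets, each above the other 3. Of the 48 guidance genes with at least 10 CPM in a subset, 29 had a top subset that stood apart from the other 3, or 60.4%, against 29.3% of all genes with that level. These were 12 in the interneuron subset, 7 in the CA3-like subset, 7 in the dentate granule-like subset and 3 in the CA1-like subset. The same counts over all genes were not computed by subset, so this split is no result about guidance genes. As with the classes, this is a description, since the clusters were made with these genes among the others.

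Epha6 was highest in the CA1-like subset with 5600 ± 261 CPM, followed by 2753 ± 196 CPM in the CA3-like subset, 1515 ± 55.9 CPM in the interneuron subset and 1162 ± 26.1 CPM in the dentate granule-like subset. None of these neighbours overlapped between libraries. Sema3e also stood apart in the CA1-like subset, with 348 ± 10.9 CPM against 260 CPM in the CA3-like subset. Robo2 had its highest mean there too, at 691 CPM, but overlapped the dentate granule-like subset with 610 CPM. The dentate granule-like subset led for Sema5a with 570 ± 15.7 CPM, against 101 ± 9.16 CPM in the interneuron subset, 71.6 ± 17.2 CPM in the CA3-like subset and 3.57 ± 1.96 CPM in the CA1-like subset. Epha7, Slit3, Plxna4 and Robo3 were also highest there, with 1322, 1363, 911 and 55.6 CPM.

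The CA3-like subset led for 2 netrin receptors of opposite action. Dcc had 1639 ± 134 CPM in the CA3-like subset, 935 ± 58.1 CPM in the CA1-like subset, 716 ± 52.2 CPM in the interneuron subset and 514 ± 40.3 CPM in the dentate granule-like subset. Unc5c had 1186 ± 74.7 CPM in the CA3-like subset, 659 ± 66.4 CPM in the interneuron subset, 346 ± 24.6 CPM in the dentate granule-like subset and 187 ± 11.3 CPM in the CA1-like subset. Slit2, with 522 ± 71.0 CPM in the CA3-like subset, had 99.4 ± 26.8, 40.0 ± 12.4 and 30.4 ± 14.5 CPM in the interneuron, dentate granule-like and CA1-like subsets. For Slit2 these last 3 subsets overlapped one another, the interneuron subset through TBI VEGFC right alone.

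The interneuron subset led for Unc5d with 1484 ± 101 CPM, against 485 ± 84.1 CPM in the dentate granule-like subset, 157 ± 27.5 CPM in the CA3-like subset and 7.88 ± 3.13 CPM in the CA1-like subset. Efna5 had 289 ± 39.3 CPM in the interneuron subset, 48.9 CPM in the dentate granule-like subset, 16.0 CPM in the CA3-like subset and 1.86 CPM in the CA1-like subset. Robo1, Sema6a and Sema3c were also highest in interneurons, with 1134, 93.6 and 66.6 CPM. The order of the pyramidal and granule subsets thus differed between the Unc5 genes, since the dentate granule-like subset came next after interneurons for Unc5d and came after both the CA3-like and interneuron subsets for Unc5c.

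**Figure D3:**
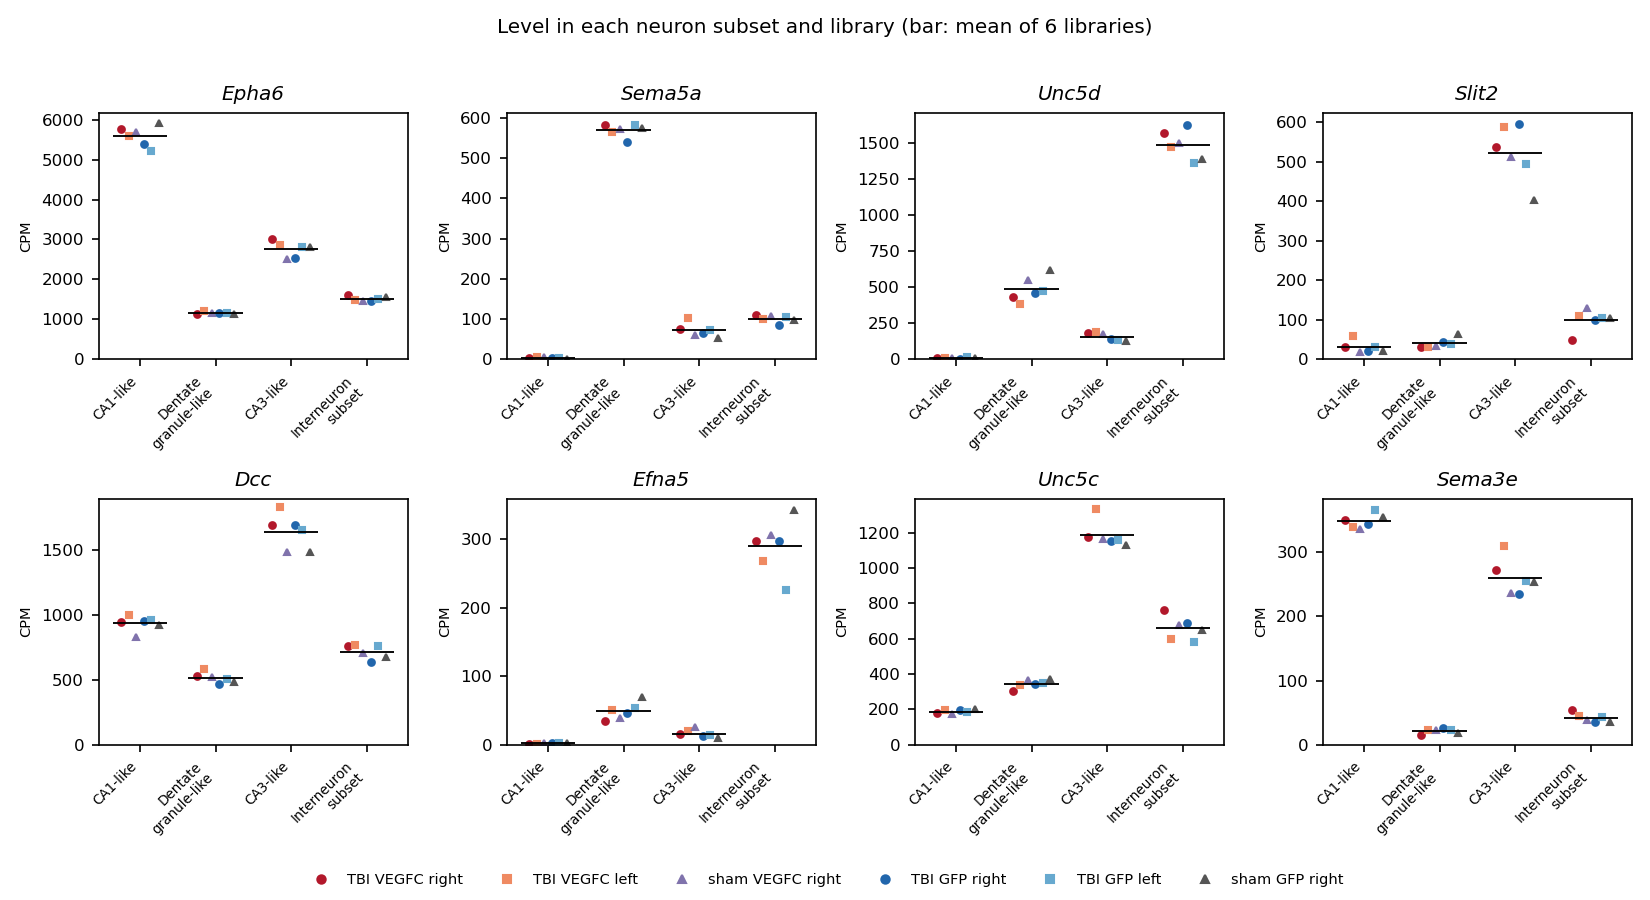
CPM of 8 guidance genes (panels, linear axes) in the 4 neuron subsets, with 1 point per library and a bar at the mean of 6. The subset with the highest mean differs between panels, as it is CA1-like for Epha6 with 5600 CPM, dentate granule-like for Sema5a with 570 CPM and interneuron for Unc5d with 1484 CPM.

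At the level of single clusters, 34 guidance genes reached 50 CPM in at least 1 of the 21 neuron clusters with enough nuclei. For 8 of them the top cluster lay above the next in every library with a value, and the share of all genes that do so was not computed. Inhibitory cluster 6 led for Sema3c, Epha3 and Unc5c with 251 ± 24.9, 614 ± 53.4 and 1779 ± 116 CPM. Inhibitory cluster 8, measured in 4 libraries, led for Sema6a and Robo2 with 367 ± 48.1 and 1224 ± 127 CPM. Excitatory cluster 5 led for Plxna2 with 250 ± 19.7 CPM, and excitatory cluster 1, which is the CA1-like subset, for Sema3e and Epha6. For the other 26 genes the top cluster overlapped the next. Among these, excitatory cluster 12 was highest for Dcc, Epha5 and Sema5b with 2739 ± 608, 2049 ± 254 and 201 ± 31.7 CPM, and inhibitory cluster 8 for Robo1, Sema4d and Plxnc1 with 2607 ± 657, 92.5 ± 15.7 and 113 ± 24.1 CPM. Excitatory cluster 3 was highest for Epha7, Plxna4, Slit1 and Epha10, at 1359, 986, 357 and 133 CPM. Excitatory cluster 2 was highest for Sema5a, Epha4, Unc5a and Robo3, at 608, 579, 95.4 and 81.7 CPM. Excitatory cluster 6 was highest for Sema6d and Ephb2, at 698 and 101 CPM, and excitatory cluster 8 for Slit3 and Efnb3, at 1535 and 69.6 CPM. Slit2 was highest in excitatory cluster 11 at 564 CPM, Efna5 in excitatory cluster 10 at 534 CPM, Sema3d in excitatory cluster 5 at 51.3 CPM and Unc5d in inhibitory cluster 6 at 1807 CPM. Inhibitory cluster 5, measured in 4 libraries, was highest for Ephb1, Efnb2, Ntn1 and Sema3a, at 262 ± 43.5, 110 ± 18.9, 81.0 ± 65.1 and 61.3 ± 37.8 CPM.

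The study's question was whether the injury and the vector change the hippocampus of these mice. Summed counts of each class and subset were tested over all genes with edgeR's quasi-likelihood test, with Benjamini-Hochberg adjustment over all genes tested in that class or subset, separately for each comparison, and a threshold of 0.05. Each combination of injury, side and vector was 1 library, and nothing in the labels says which libraries came from separate mice, so the p-values measure the spread between these libraries. The TBI right libraries enter both comparisons of context. For 62 guidance genes in the classes and 55 in the subsets at least 1 fit was made, giving 275 gene and class pairs and 180 gene and subset pairs. In all 3 additive comparisons the median log2 fold of these pairs lay between −0.01 and 0.03. Subset pairs reuse nuclei of the neuron classes. Spread between libraries was taken as the median SD of log2 (CPM + 1) of genes with at least 50 CPM. In inhibitory neurons it was 0.175 for guidance genes and 0.118 for all genes. It was also higher for guidance genes in the other classes, except OPCs (0.202 against 0.249) and fibroblasts (0.452 against 0.512). Its part in the shares at an unadjusted p under 0.05 was not tested.

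**Figure D4:**
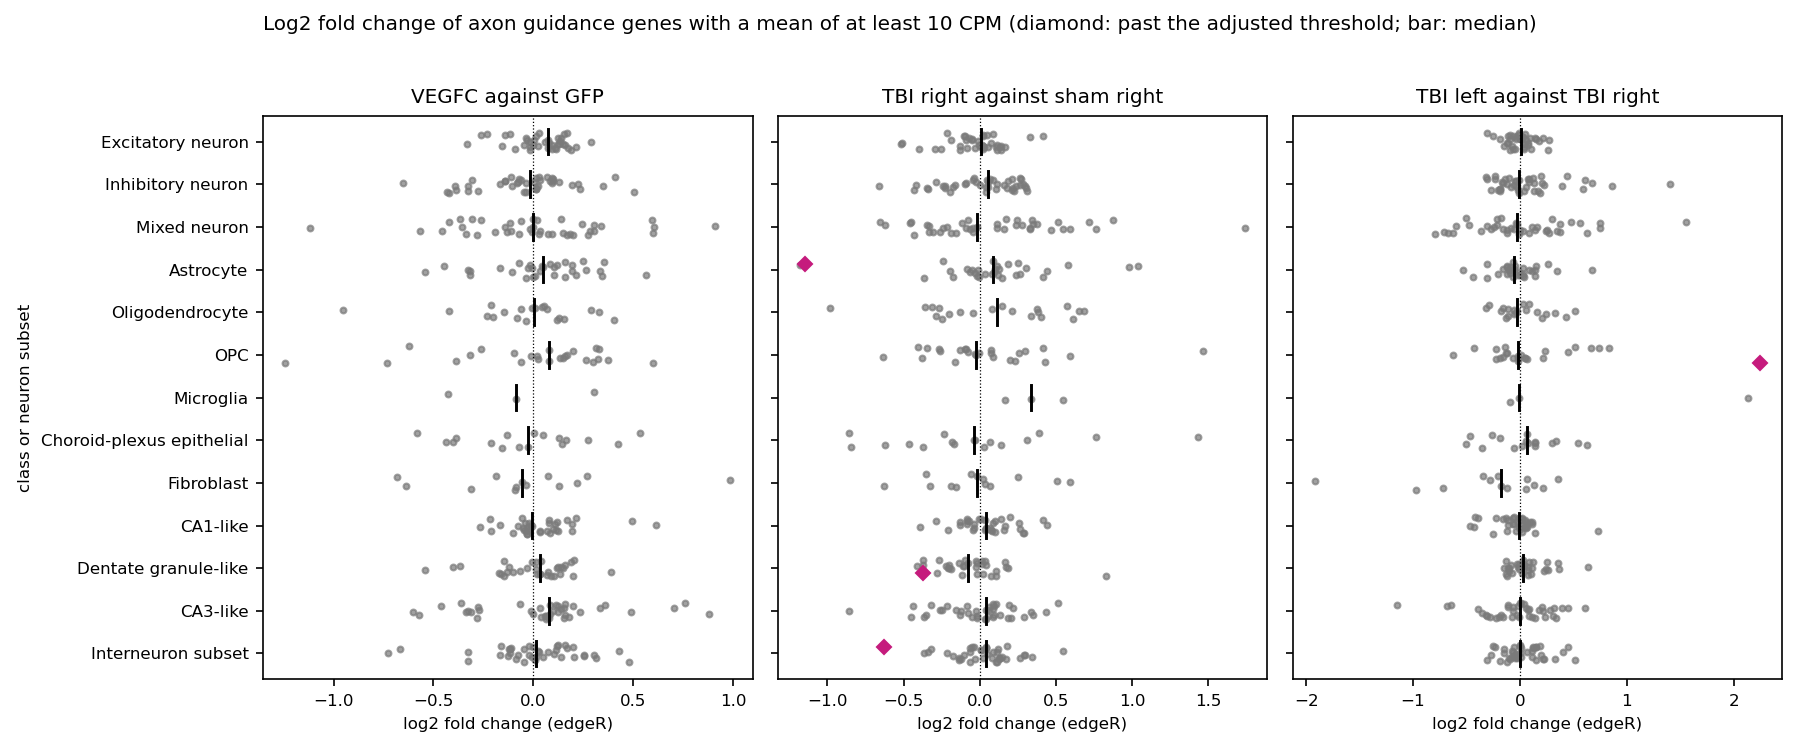
Log2 fold of the guidance genes with a mean of at least 10 CPM in 9 classes and 4 neuron subsets (rows), with a panel each for the vector, the injury on the right and the left side against the right after TBI, with diamonds past the adjusted threshold and bars at medians. Of the 380 pairs in each panel, 378, 374 and 374 lie within 1 of 0 on the log2 scale.

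With the VEGFC vector, no guidance gene differed from AAV-GFP past the threshold in any class or subset by edgeR. Over all genes, 0.0281% of tests passed in the classes and 0.0247% in the subsets. At an unadjusted p under 0.05 there were 31 of the 275 class pairs, 11.3%, against 5.41% of all genes, and 23 of the 180 subset pairs, 12.8%, against 6.12%. DESeq2 called 0 of these pairs as well, and limma-voom called 1, Robo1 in oligodendrocytes. Without sham VEGFC right 6 class pairs passed, and without sham GFP right 4. The share of all genes passing in those fits is not given here, so these counts are no result about guidance genes. Robo1, the Slit receptor, had 767, 722 and 827 CPM in oligodendrocytes of TBI VEGFC right, TBI VEGFC left and sham VEGFC right, against 552, 536 and 696 CPM in TBI GFP right, TBI GFP left and sham GFP right. The VEGFC libraries were all above the GFP libraries, with a log2 fold of 0.40 (SE 0.10, adjusted p = 0.0697 by edgeR). Unc5d in the CA3-like subset had 184, 185 and 177 CPM with VEGFC and 137, 131 and 128 CPM with GFP. Those groups did not overlap either, with a log2 fold of 0.49 (SE 0.11, adjusted p = 0.377 by edgeR). Slit2 in the dentate granule-like subset had 31.1, 30.5 and 34.6 CPM with VEGFC and 42.9, 37.4 and 63.4 CPM with GFP, a log2 fold of −0.54 (SE 0.13, adjusted p = 0.175 by edgeR), with no overlap. The remaining pairs of smallest p with positive folds were Sema5b and Efnb2 in the CA3-like subset at 0.71 and 0.88 and Sema6d in OPCs at 0.31. Those with negative folds were Sema6b and Sema3a in the interneuron subset at −0.73 and −0.67, Efna5 in the dentate granule-like subset at −0.40 and Ephb1 in OPCs at −1.24.

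After TBI on the right, 3 of the guidance genes were lower than in sham past the threshold, each in 1 class or subset, and none was higher. They were Epha6 in astrocytes, Unc5d in the dentate granule-like subset and Slit2 in the interneuron subset. That is 1 of 275 class pairs and 2 of 180 subset pairs, where 0.0782% and 0.0884% of all gene tests passed. At an unadjusted p under 0.05 there were 32 class pairs, 11.6%, against 5.03% of all genes, and 20 subset pairs, 11.1%, against 5.70%.

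Unc5d, a repulsive netrin receptor (chr8:28646717-29219636, minus strand, mm10), had 432 and 459 CPM in the dentate granule-like subset of TBI VEGFC right and TBI GFP right, against 550 and 615 CPM in sham VEGFC right and sham GFP right. Both TBI libraries were below both sham libraries, and the left TBI libraries with VEGFC and GFP had 382 and 471 CPM. The log2 fold of TBI right against sham was −0.38 (SE 0.08, adjusted p = 0.0484 by edgeR), where 0.138% of all genes passed in this subset. In the 2 clusters of the subset the fold was −0.28 (adjusted p = 0.452) and −0.48 (adjusted p = 0.0239), the second in excitatory cluster 3, by edgeR. The call was lost by DESeq2 (adjusted p = 0.886) and without sham VEGFC right, TBI GFP right or TBI VEGFC right, where the fold was −0.37, −0.32 and −0.43. Over all excitatory neurons Unc5d had 334 and 378 CPM in the TBI right libraries and 483 and 546 CPM in the sham libraries, a log2 fold of −0.51 (SE 0.10, adjusted p = 0.320 by edgeR), and DESeq2 called that pair.

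Slit2, the repellent ligand (chr5:47983138-48307733, plus strand, mm10), had 48.7 and 100 CPM in the interneuron subset of TBI VEGFC right and TBI GFP right, against 129 and 104 CPM in sham VEGFC right and sham GFP right. TBI VEGFC right alone was far below the rest, as TBI GFP right was close to sham GFP right and the left TBI libraries had 109 and 106 CPM. The log2 fold was −0.63 (SE 0.14, adjusted p = 0.0289 by edgeR), where 0.0698% of all genes passed. Without TBI VEGFC right it was −0.09 and without sham VEGFC right −0.28, both not called. By DESeq2 the pair was not called (adjusted p = 1). In inhibitory cluster 1 alone, which made up 43.0 to 52.4% of the subset's nuclei, it was −0.63 (adjusted p = 0.694 by edgeR).

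Epha6 (chr16:59653483-60605531, minus strand, mm10) had 16.4 and 13.4 CPM in astrocytes of TBI VEGFC right and TBI GFP right, against 45.2 and 22.0 CPM in sham VEGFC right and sham GFP right. The groups did not overlap, with a log2 fold of −1.15 (SE 0.28, adjusted p = 0.0351 by edgeR), where 0.326% of all genes passed. In sham VEGFC right, 45 of the 82 Epha6 UMIs of astrocytes came from 1 nucleus, and with nuclei of a doublet score of at most 0.05 the fold was 0.16. The call was lost without sham VEGFC right, where the fold was −0.43, and without TBI GFP right or TBI VEGFC right, where it was −1.16 and −1.13, and DESeq2 did not make it (adjusted p = 1). Of 6 neuronal marker genes, Nrg3 was also lower in astrocytes after TBI, with a log2 fold of −1.27 (adjusted p = 0.000261 by edgeR), and the other 5 were not past the threshold. Their part in the Epha6 result was not tested.

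Of the pairs of smallest p that did not pass, those with positive folds for TBI right against sham were Slit2 in OPCs at 1.47, Sema3c in astrocytes at 1.04, Slit3 in choroid plexus at 0.76, Sema4d in oligodendrocytes at 0.57 and Ephb1 in oligodendrocytes at 0.40. Slit2 in OPCs had 51.1 and 48.5 CPM in TBI VEGFC right and TBI GFP right, against 20.4 and 15.7 CPM in sham VEGFC right and sham GFP right (adjusted p = 0.872 by edgeR). Negative folds came from Unc5d in astrocytes at −1.18 (adjusted p = 0.0850 by edgeR) and from Plxnb2, Ntn4 and Slit2 in choroid plexus at −0.86, −0.62 and −0.46. Slit2 in choroid plexus, its top class, had 294 and 283 CPM after TBI, against 364 and 434 CPM in sham, without overlap (adjusted p = 0.403 by edgeR).

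Between the TBI libraries of the left and the right side, 1 guidance gene passed, Unc5d in OPCs, which was higher on the left. That is 1 of 275 class pairs and 0 of 180 subset pairs, where 0.0318% and 0.00822% of all gene tests passed. At an unadjusted p under 0.05 there were 15 class pairs, 5.45%, against 3.49% of all genes, and 10 subset pairs, 5.56%, against 3.70%, and DESeq2 called 0 in the subsets. Unc5d had 116 and 55.8 CPM in OPCs of TBI VEGFC left and TBI GFP left, against 16.0 and 19.4 CPM in TBI VEGFC right and TBI GFP right, and 10.2 and 18.8 CPM in sham VEGFC right and sham GFP right. Both left libraries were above all right ones, with a log2 fold of 2.24 (SE 0.44, adjusted p = 0.0454 by edgeR), where 0.0448% of all genes passed. The counts were small and uneven, since 18 of 20 UMIs in TBI GFP left and 17 of 43 in TBI VEGFC left came from 1 nucleus each. Of the 5 neuronal markers tested in the same comparison in OPCs, none passed. Syt1 had a log2 fold of 1.12 (adjusted p = 0.163 by edgeR) and Celf4 0.65. Dlgap1 had 0.003, and Nrg3 and Snap25 had −0.13 each. The part of these markers in the Unc5d result was not tested. Without TBI VEGFC left the fold was 1.38, without TBI VEGFC right 1.69 and without sham GFP right 2.25, none of them called, and DESeq2 did not call the pair (adjusted p = 1).

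The other pairs of smallest p on the left against the right were led by Slit2, with positive folds of 0.51 in the interneuron subset, 0.73 in the CA1-like subset and 0.59 in inhibitory neurons. Without TBI VEGFC right, the fold of Slit2 in the interneuron subset was −0.00659. Sema3a in inhibitory neurons had a fold of 0.86, with 17.9 and 45.3 CPM on the left and 18.2 and 16.5 CPM on the right, VEGFC first. TBI GFP left alone was high. Inhibitory cluster 5, the neuron cluster with the highest Sema3a, made up 0.487% and 20.9% of the inhibitory nuclei in TBI VEGFC left and TBI GFP left, and 7.47% and 2.55% in TBI VEGFC right and TBI GFP right. The 5 striatal markers in inhibitory neurons summed to 43.3 and 304 CPM in these left libraries and to 132 and 59.2 CPM in the right ones. The part of both in this fold was not tested. Epha5 in microglia had 135 and 172 CPM in TBI VEGFC left and TBI GFP left, against 23.6 and 47.1 CPM in TBI VEGFC right and TBI GFP right, a log2 fold of 2.13 (adjusted p = 0.541 by edgeR). The 6 neuronal markers in microglia summed to 949 and 1100 CPM in these left libraries and to 165 and 157 CPM in these right ones. In sham VEGFC right and sham GFP right they summed to 129 and 359 CPM, and their part in this fold was not tested. Negative folds were those of Epha3 and Epha10 in mixed neurons at −0.80 and −0.71, and of Unc5c, Efna5 and Unc5d in the interneuron subset at −0.31, −0.28 and −0.18.

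Whether the vector difference itself differed between TBI and sham was tested with the left and right TBI libraries taken as replicates. In this interaction, 3 of 301 class pairs and 0 of 185 subset pairs passed, against 0.221% and 0.239% of all gene tests, by edgeR. At an unadjusted p under 0.05 there were 39 class pairs, 13.0%, against 7.24% of all genes, and 22 subset pairs, 11.9%, against 7.63%, and DESeq2 called 0 in the subsets. All 3 were in the mixed neurons, where 1.19% of all genes passed and where the libraries had 46 to 259 nuclei. Slit3 had 349 and 84.8 CPM in TBI VEGFC right and TBI GFP right, 323 and 201 CPM in TBI VEGFC left and TBI GFP left, and 214 and 310 CPM in sham VEGFC right and sham GFP right. It was thus above GFP with VEGFC on both sides after TBI and below it in sham, and the log2 difference of the folds was 1.64 (SE 0.35, adjusted p = 0.00529 by edgeR). Without TBI GFP left the value was 2.63 and not called, and with a doublet score of at most 0.05 it was 2.22 (adjusted p = 0.857 by edgeR). Some marker sums moved with Slit3 in the mixed neurons and others did not. The excitatory markers summed to 388 and 249 CPM in TBI VEGFC right and TBI GFP right, 337 and 277 CPM in TBI VEGFC left and TBI GFP left, and 252 and 361 CPM in sham VEGFC right and sham GFP right. The CA3 markers summed to 519 and 314, 547 and 443, and 346 and 546 CPM in the same order, and the astrocyte markers to 124 and 99.7, 114 and 80.9, and 87.4 and 103 CPM. The dentate granule markers were above GFP with VEGFC in sham as well, with 283 and 189, 226 and 178, and 236 and 170 CPM. The CA1 markers were below GFP with VEGFC throughout, with 54.9 and 69.8, 35.2 and 51.9, and 22.7 and 26.6 CPM. Slit3 was highest in excitatory neurons (1053 CPM), and among the subsets in the dentate granule-like one (1363 CPM). The part of these sums in the result was not tested.

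Efna5 had 279 and 219 CPM in TBI VEGFC right and TBI GFP right, 365 and 353 CPM in TBI VEGFC left and TBI GFP left, and 524 and 198 CPM in sham VEGFC right and sham GFP right. The vector difference was thus largest in sham, and the log2 difference of the folds was −1.25 (SE 0.32, adjusted p = 0.0294 by edgeR). Without TBI GFP left or TBI VEGFC right it was −0.76 and −1.07, not called, and with the doublet limit it was 1.22 (adjusted p = 0.894 by edgeR), of the opposite sign. Ntn1 had 2.39 and 34.9 CPM, 11.7 and 14.0 CPM, and 38.8 and 1.67 CPM in the same order of libraries. Its log2 difference was −5.80 (SE 1.47, adjusted p = 0.0269 by edgeR), on 43 UMIs in all, and it was called in 1 of the 4 fits that left out a TBI library. With the doublet limit it could not be fitted. In the mixed neurons the inhibitory markers summed to 227 and 319, 189 and 230, and 259 and 170 CPM in the same order, and the interneuron markers to 125 and 160, 109 and 171, and 223 and 68.3 CPM. The choroid plexus markers summed to 530.2 and 838, 629.5 and 696, and 838 and 661 CPM, and the OPC markers to no more than 22.7 CPM. These 4 sums were below GFP with VEGFC after TBI and above it in sham. Ntn1 moved in the same way, while Efna5 was above GFP with VEGFC after TBI as well as in sham. The part of these sums in the values of Efna5 and Ntn1 was not tested. Robo2, a receptor of Slit3, came close in mixed neurons with 1.05 (SE 0.30, adjusted p = 0.0659 by edgeR), and Dcc, the receptor of Ntn1, had −0.79 (SE 0.25, adjusted p = 0.136 by edgeR). Outside the mixed neurons, the positive values of smallest p were those of Robo2 in inhibitory neurons at 0.88, Robo1 in astrocytes at 0.67, Sema3a in the interneuron subset at 1.71 and Sema6d in astrocytes at 0.42. The negative ones were Robo2 in astrocytes at −0.51, Ntn1 in inhibitory neurons at −3.27, Epha6 in astrocytes at −1.29 and Robo2 in fibroblasts at −1.40.

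**Figure D5:**
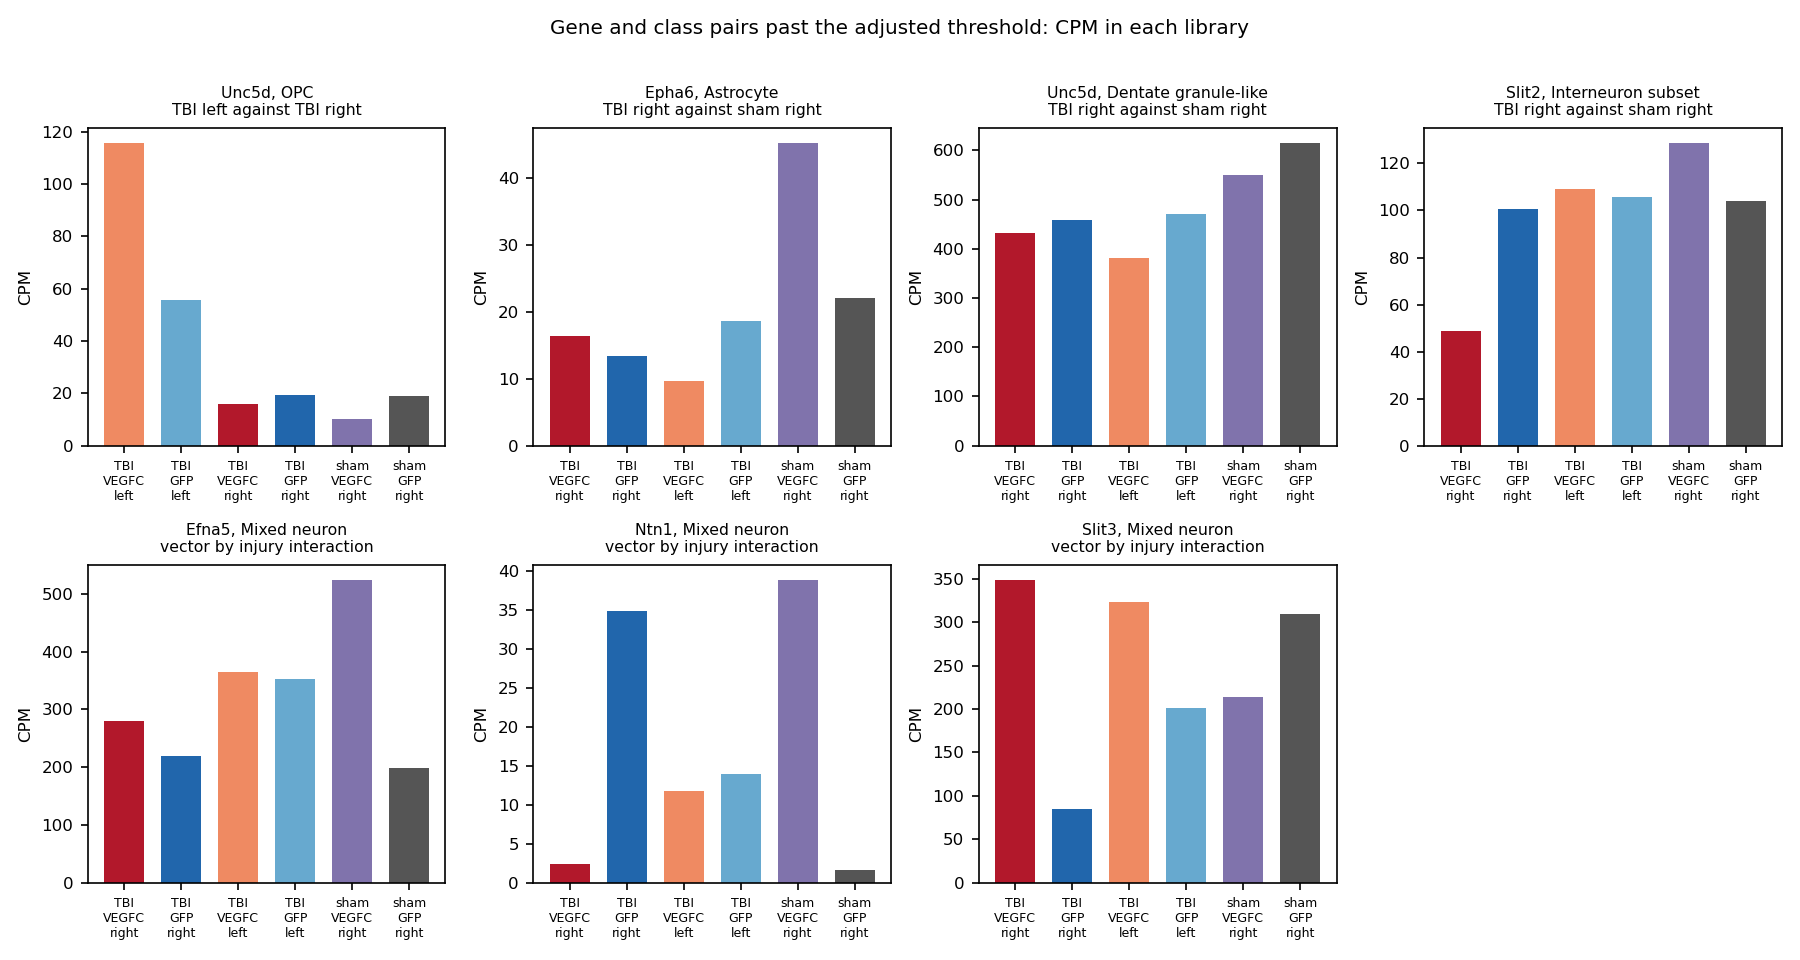
CPM in each of the 6 libraries (bars, axes from 0) for the 7 gene and class pairs past the adjusted threshold, with the comparison in each panel's title. In the panel of Slit2 in the interneuron subset the TBI VEGFC right bar stands alone at 48.7 CPM, and in that of Unc5d in OPCs the left TBI bars reach 116 and 55.8 CPM.

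Of 67 further genes of the pathway, 22 were co-receptors and other guidance proteins and 45 effectors in the cell. None of them passed for VEGFC against GFP or for TBI left against TBI right, by edgeR. Gfra1, a co-receptor of the GDNF family, passed in the interaction in mixed neurons with −2.27 (SE 0.49, adjusted p = 0.00539 by edgeR). The median log2 folds of both lists over the classes lay between −0.04 and 0.05 in the additive comparisons.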

How the data were processed

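Nuclear RNA of microdissected hippocampi was measured with the 10x Genomics 3' v3.1 kit, per the labels' protocols. The submitters' processing notes name Cell Ranger 7.0.1, Scanpy and mm10 without further settings. The deposited matrix gives UMI counts that are not normalized. The deposited metadata give the library, class and cluster of each nucleus, the percent of mitochondrial UMIs and a doublet score from an unstated tool. The lowest deposited nucleus had 1001 UMIs and the highest doublet score was 0.0990. No doublet caller was run, and all nuclei were kept.

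Counts were summed per class and library, and per subset (CA1-like, excitatory cluster 1; dentate granule-like, excitatory clusters 2 and 3; CA3-like, excitatory cluster 4; interneuron, inhibitory clusters 1, 3, 6 and 8). Cluster levels use libraries with at least 20 nuclei of the cluster. After filterByExpr and TMM, edgeR 4.0.16 (R 4.3.3) gave quasi-likelihood tests of the sums, with terms for context and vector, which leaves 2 residual degrees of freedom. The interaction model had 4 groups and also 2 residual degrees of freedom. SEs were obtained as the size of the log2 fold over the root of the F value. Alternatives used DESeq2 1.42.0 and limma-voom (limma 3.58.1), and the edgeR step was tested on simulated data.

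The genes and lists were chosen with earlier results of these data known. Named were, for levels, the 3 highest genes of each family, those that stood apart and the top neuron cluster of those with at least 50 CPM. For comparisons, all that passed and the 5 of smallest p in each direction with at least 10 CPM were named. Chosen after seeing the data were the doublet score limit, at least 2000 UMIs and single libraries left out for the interaction, and the single clusters. A result of the list of further pathway genes is not reported here.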

Additional observations from a re-analysis of the deposited data

Results flagged for a closer look

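For 3 genes in mixed neurons, the difference between VEGFC and GFP was itself not the same after TBI as in sham, by the interaction test of edgeR with Benjamini-Hochberg adjustment. The log2 difference of the folds was 1.64 for Slit3 (adjusted p = 0.00529), −1.25 for Efna5 (adjusted p = 0.0294) and −5.80 for Ntn1 (adjusted p = 0.0269). Each rests on 1 sham library per vector and on left and right TBI libraries taken as replicates. DESeq2 called none of the 3. Without TBI GFP left, none of them passed, and the values were 2.63 for Slit3, −0.76 for Efna5 and −6.66 for Ntn1. With a doublet score of at most 0.05, Slit3 had 2.22 (adjusted p = 0.857), Efna5 had 1.22 (adjusted p = 0.894) and Ntn1 could not be fitted. In the mixed neurons, the summed excitatory, CA3 and astrocyte markers were above GFP with VEGFC after TBI and below it in sham, as Slit3 was. The inhibitory, interneuron, choroid plexus and OPC sums went the other way round, as Ntn1 did. The sum of the 6 neuronal markers also moved as Slit3 did. The dentate granule, CA1, oligodendrocyte, microglia, fibroblast, striatal and thalamic sums did neither. Endothelial and pericyte sums moved as Slit3 did and ependymal sums as Ntn1 did, but none of these was above 20.1 CPM in a library. Their part in these results was not tested. No group had the 4 libraries needed to look for a library far from its group.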

How the results depend on the processing

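No paired analysis was possible because the replicate numbers in the labels run over all 6 libraries, so no number is shared between groups. The number of guidance genes called in the classes for VEGFC against GFP was 0, and 1 with limma-voom and with no filter on low counts. For TBI right against sham right it was 1 in the classes, 3 with no filter, and 0 with limma-voom, with nuclei of at least 2000 UMIs and with a doublet score of at most 0.05. In the subsets it was 2, 1 with library totals, and 0 with DESeq2 and with the doublet limit. For TBI left against TBI right it was 1 in the classes, 4 with no filter, and 0 with DESeq2, limma-voom, at least 2000 UMIs and the doublet limit. For the interaction it was 3 in the classes, 0 with DESeq2 and 6 with the doublet limit, all of them in excitatory neurons and none among the 3. With 1 library left out at a time, the counts in classes and subsets were 0 to 6 and 0 to 1 for VEGFC, 0 to 3 and 0 to 2 for TBI against sham, 0 to 8 and 0 to 1 for left against right, and 1 to 8 and 0 to 1 for the interaction. The highest class counts came without sham VEGFC right (6), sham GFP right (3), TBI VEGFC left (8) and TBI GFP right (8), in the same order. The share of all genes passing under these alternatives is not given here, so the shifts are no result about guidance genes. Their cause was not tested. None of the 7 pairs that passed was called by DESeq2.

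Signs turned for Epha6 in astrocytes (0.16) and Efna5 in mixed neurons (1.22) with the doublet limit, and for Slit2 in the interneuron subset, left against right, without TBI VEGFC right (−0.00659). Of the named folds under all alternatives, 488 kept their direction and side of the threshold, 23 passed it anew, 36 no longer passed and 3 turned. These include folds that did not pass in the main fits, where staying unpassed counted as kept, so 488 says little about the calls themselves. In the alternatives with no library left out, Unc5d in OPCs stayed called in 3 of 6 and Epha6 in astrocytes in 3 of 7. Unc5d in the dentate granule-like subset did so in 5 of 7 and Slit2 in the interneuron subset, TBI right against sham, in 4 of 7. The 24 genes whose top class stood apart became 11 with at least 2000 UMIs, 17 with the doublet limit and 24 to 27 with a library left out. The shares of all genes under these limits are not given here. The top class was kept by 50, 48 and 54 to 56 of the 57 genes. Fibroblasts gave no fold at 2000 UMIs, as 1 library had no nuclei left. Depth limits microglia and fibroblasts most, where 3 and 13 guidance genes could be tested.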
